A study of Mus musculus with 11 samples.

Results

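The histone cluster genes of the mouse were examined for PU.1 in chromatin of erythroid cells. Their members are the 70 of 37273 genes of the GENCODE annotation of NCBIM37 (the assembly mm9) whose names start with Hist1h, Hist2h, Hist3h or Hist4h. For each one, reads of PU.1 ChIP-Seq and of input DNA were counted in 500 bp around the annotated transcription start site (TSS). MEL cells are leukemic erythroblasts of a mouse erythroleukemia line, here 1 clone that carries a fusion of GATA-1 with the ligand-binding part of the estrogen receptor (GATA-1/ER) and grows in puromycin. ES-EP are proliferating erythroid progenitors made from embryonic stem cells, kept growing by dexamethasone, hIGF-1, erythropoietin and stem cell factor (SCF). The antibody anti-PU.1 (T-21) was used on duplicate chromatin of each cell type, and there are 4 ChIP libraries a cell type (A1, A2, B1, B2). Their letters A and B were read as the 2 preparations, which the labels do not state. Input DNA was sequenced as 1 library of MEL cells and as 2 of ES-EP, which were summed.

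PU.1, the product of Sfpi1, is an Ets family transcription factor of blood cells that binds DNA around the core sequence GGAA. Histones are the proteins around which DNA is wound: H2A, H2B, H3 and H4 form the nucleosome core and H1 binds the linker DNA between nucleosomes. The genes in the clusters are mostly replication-dependent, are transcribed in S phase without introns, and give mRNAs that end in a stem-loop in place of a poly(A) tail. Such genes stand in many near copies so that dividing cells can make enough histone for new DNA, and erythroblasts divide rapidly before they condense their chromatin. Many H2A and H2B genes are paired head to head around a shared promoter.

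The Hist1 cluster on chromosome 13 holds 56 members, of which 6 encode H1, 15 H2A, 15 H2B, 9 H3 and 11 H4. Of these 55 lie between positions 21807632 and 24026720, and Hist1h2al lies apart on the same chromosome. The Hist2 cluster on chromosome 3 (96023839 to 96082924) holds 10 members, with 4 for H2A, 2 for H2B, 3 for H3 and 1 for H4. The Hist3 cluster on chromosome 11 holds Hist3h2a, Hist3h2ba and Hist3h2bb-ps, and Hist4h4 stands alone on chromosome 6. The annotation calls 67 members protein-coding and 3 pseudogenes (Hist3h2bb-ps, Hist1h2aj and Hist2h3c2). Because of the paired promoters, 30 members have a window that overlaps that of another member, the 70 windows cover 55 separate regions, and reads in an overlap count for both genes.

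The sequences that carry the findings are shown first, all from NCBIM37. The 200 bases before the TSS of Hist1h3e, an H3 gene of the Hist1 cluster, held the densest PU.1 reads of any histone promoter. Those of Hist1h3c, another H3 gene, and of Hist1h1e, a linker histone gene, are shown for comparison. Capitals mark GGAA on either strand (TTCC is the same core on the other strand), and each sequence runs in the direction of its gene.
Hist1h3e, chr13:23654239-23654438, minus strand: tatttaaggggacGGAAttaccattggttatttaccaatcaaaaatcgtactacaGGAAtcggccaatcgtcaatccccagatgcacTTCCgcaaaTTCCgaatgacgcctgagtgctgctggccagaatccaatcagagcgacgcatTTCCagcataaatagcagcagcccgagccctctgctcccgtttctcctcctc
Hist1h3c, chr13:23837472-23837671, minus strand: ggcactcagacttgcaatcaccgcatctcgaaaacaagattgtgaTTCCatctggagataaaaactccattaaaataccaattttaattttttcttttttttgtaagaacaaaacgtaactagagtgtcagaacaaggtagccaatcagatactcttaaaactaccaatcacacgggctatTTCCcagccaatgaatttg
Hist1h1e, chr13:23714372-23714571, minus strand: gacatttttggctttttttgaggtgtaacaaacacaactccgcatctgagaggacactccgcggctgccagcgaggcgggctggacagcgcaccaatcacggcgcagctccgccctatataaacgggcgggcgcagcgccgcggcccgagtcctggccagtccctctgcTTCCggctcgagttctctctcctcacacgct

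The Hist1h3e stretch holds 5 GGAA cores, the Hist1h1e stretch 1 and the Hist1h3c stretch 2. A pair of the Hist1h3e cores lies on the minus strand of the gene at 113 to 110 and at 104 to 101 bases before the TSS. The first of them is part of GCGGAAGT, which spans 115 to 108 bases before the TSS. This word was chosen after the reads had been seen. It occurs on either strand in 2 of the 70 member promoters (250 bases before to 50 after the TSS) and in 2.28% of the 22295 other protein-coding promoters. CCAAT, the sequence bound by NF-Y, occurs 4 times in the Hist1h3e stretch.

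Hist1h3e was the only member at which PU.1 reads stood far above input in all 4 preparations. Its window held 18, 26, 37 and 59 reads in the MEL ChIP libraries A1, A2, B1 and B2, against 3 reads in the MEL input. In ES-EP the 4 ChIP libraries held 60, 93, 30 and 64 reads, and the 2 inputs held 2 and 5. Every ChIP library was above every input library, although each input was as deep as or deeper than some of the ChIP libraries. As CPM (reads per 1000000 reads of the sample), the MEL preparations gave 7.72 (A) and 13.7 (B) with an input of 0.701. The ES-EP preparations gave 24.3 (A) and 13.2 (B) with an input of 0.935. The ChIP preparations were thus 11 and 19.6 times the input in MEL cells and 26 and 14.2 times in ES-EP. Hist1h3e had the highest depth-scaled level of the 70 members in each of the 4 preparations, and was not among the highest 3 in either input.

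In a limma fit over all 21252 gene windows with at least 10 reads, ChIP exceeded input at Hist1h3e in ES-EP by a log2 fold change of 4.18 (SE 0.95, n = 2 preparations, adjusted p = 0.00463). In MEL cells the log2 fold change was 3.66 (SE 0.98, n = 2), and it missed the threshold of 0.05 with an limma adjusted p = 0.0537. The inputs have 1 summed sample in each cell type, so their spread is taken from the ChIP preparations. The ES-EP call was lost under 6 of 19 other settings, with limma adjusted p-values from 1.34e-06 to 0.821, and the lost calls include those without ES-EP A (log2 fold change 3.73), ES-EP B (4.61), MEL B (4.18) and ES-EP input 2 (4.14). Under the same 19 settings the MEL value passed in 5. Over all 19 its log2 fold change was between 2.85 and 4.08. On summed reads, a two-sided exact binomial test, which compares these libraries and not the cultures, gave a ratio of 15.7 in MEL cells (95% interval 5.28 to 77.2, adjusted p = 5.71e-12). The ratio was 19.7 in ES-EP (9.44 to 49.6, adjusted p = 5.8e-36). These intervals cover counting error only.

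Between the cell types the log2 fold change of MEL over ES-EP ChIP at Hist1h3e was -0.81 (SE 0.89, n = 2 against 2, limma adjusted p = 0.839). In CPM, MEL A lay below both ES-EP preparations and MEL B lay between them. The difference of the enrichments over input was -0.52 (SE 1.36, limma adjusted p = 0.995). ChIP of a culture does not tell a larger share of cells with PU.1 at a site from more stable binding in each cell.

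Of the 387 ChIP reads in the Hist1h3e window, 332 (85.8%) had their fragment centre between 200 and 50 bp before the TSS, where the inputs had 1 read (MEL) and 0 reads (ES-EP). The 50 bp step with the most reads lay 100 to 50 bp before the TSS with 18 and 32 reads in the MEL preparations and 60 and 42 in those of ES-EP, A first. The reads fell away on both sides, to 10 in the 4 preparations together in the 50 bp before the TSS and 9 in the step from 250 to 200 bp before it. Within this window 63.8% of the read positions are unique in the genome.

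**Figure D1:**
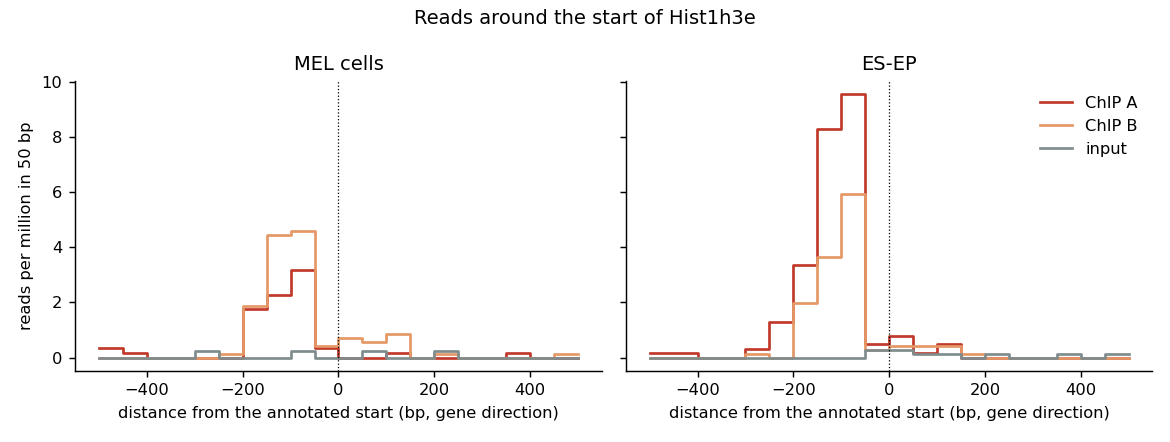
Depth-scaled reads in steps of 50 bp against the distance from the annotated TSS of Hist1h3e, for MEL cells on the left and ES-EP on the right, with a line for each ChIP preparation and for the input. In all 4 preparations the reads stand between 200 and 50 bp before the TSS, while the input stays near 0.

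The members together and by histone type are described next by the ratio of summed ChIP to summed input. Over all 70 members the summed depth-scaled reads of the ChIP were 1.63 (A) and 2.81 (B) times the input in MEL cells, and 2.36 (A) and 1.30 (B) times in ES-EP. Without Hist1h3e these values were 1.44, 2.47, 1.83 and 1.01. The same sums over 22300 protein-coding genes outside the list gave 1.92, 3.26, 1.93 and 1.11. Hist1h3e was left out because it was the highest member, and the other genes kept their highest, so the values without it are a description of its share in the sums. MEL B and ES-EP A had the larger ratio of their cell type for members and other genes alike.

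The linker histone genes (H1), which were the most unique in sequence with a median of 92.3% unique positions, had ChIP to input ratios of 1.11 and 2.21 in MEL A and B and of 2.35 and 1.06 in ES-EP A and B. The H2A genes gave 1.86, 2.88, 1.79 and 1.00 in the same order. The H2B genes were the lowest, with 0.924, 1.11, 1.29 and 0.603. The H4 genes gave 1.50, 3.50, 1.63 and 1.19. The H3 genes gave 3.62, 6.12, 6.58 and 3.49, but without Hist1h3e the other 11 H3 genes gave 2.04, 3.24, 2.69 and 1.36. Of the reads of these 11 genes Hist1h3h held 33 of 74 in MEL B and 25 of 79 in ES-EP A, and without it the ratios were 1.61, 1.79, 2.01 and 1.39. The order of H2A and H4 is not the same in every preparation, whereas H2B was the lowest type in each of them.

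**Figure D2:**
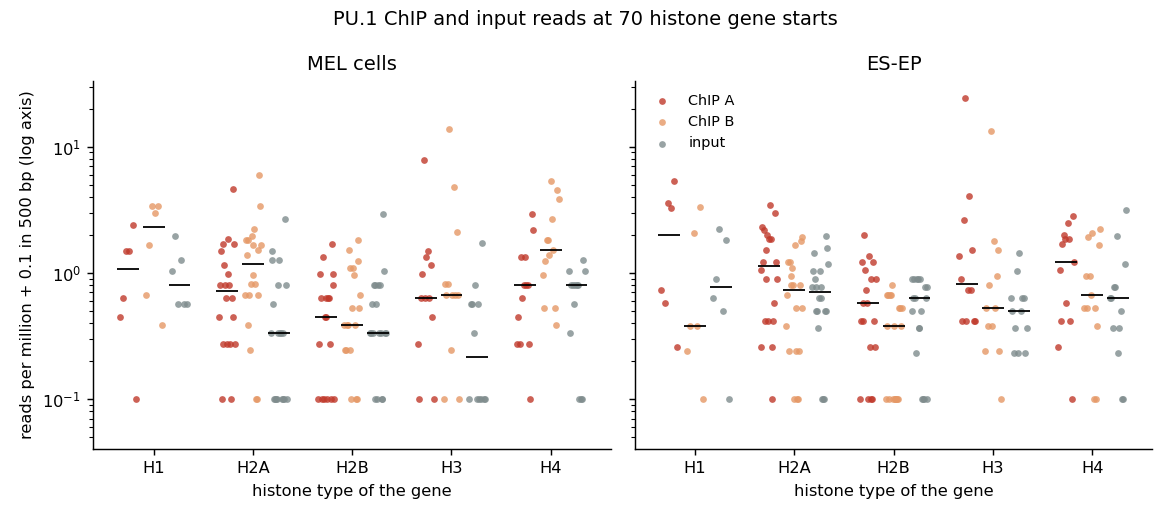
Depth-scaled reads (with 0.1 added, log axis) in 500 bp around the TSS of each of the 70 members, by histone type, in MEL cells (left) and ES-EP (right). Each point is 1 gene in ChIP preparation A, B or input and the bars are medians; the single high H3 point of each ChIP preparation is Hist1h3e.

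The limma test called 0 of the 59 members tested in MEL ChIP over input, where 0.329% of all windows were called. Its unadjusted p was under 0.05 for 4 members and for 2303 of all 21252 windows. In ES-EP limma called 1 of 59, Hist1h3e, where 0.551% of all windows were called. There the unadjusted p was under 0.05 for 2 members and 1247 of all windows. The median log2 fold change of ChIP over input was 0.62 for members and 0.65 for all windows in MEL cells, while the corresponding ES-EP medians were 0.30 and 0.31. The ES-EP medians were 0.0017 and 0.42 with exact matches at unique positions, and 0.078 and 0.20 without ES-EP A. The members' median was the higher one with a 200 bp window (0.75 and 0.44), with at least 20 reads (0.79 and 0.44) and without ES-EP B (0.70 and 0.56), and in MEL cells with a 1000 bp window (0.84 and 0.39). Of the 59 members 43 had a MEL value above 0, as had 14471 of all 21252 windows, and 35 had an ES-EP value above 0, as had 13536. Median-ratio scaling, which takes the typical window as unchanged, turned the members' medians to -0.27 (MEL) and -0.10 (ES-EP), and those of all windows to -0.19 and -0.17. The other 11 members had under 10 reads over all 11 libraries and were not tested. By the exact binomial test on summed reads, 5 members (8.47%) were higher in ChIP in MEL cells and 4 (6.78%) in ES-EP, which is below the share of all windows called by that test, 12% and 10.7%.

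Besides Hist1h3e, the members called by that test were Hist1h1e and Hist1h3h in both cell types, Hist1h4i and Hist1h2ae in MEL cells, and Hist1h3d in ES-EP. They were outside the rule for named genes and are described because they were called. Hist1h1e, which encodes a linker histone, held 4, 9, 7 and 16 reads in MEL A1, A2, B1 and B2 against 2 in the input, and 9, 24, 4 and 19 in ES-EP against 3 and 10. Its ratio was 6.07 in MEL cells (exact binomial adjusted p = 0.0246) and 2.41 in ES-EP (exact binomial adjusted p = 0.0257), while limma gave adjusted p-values of 0.422 and 0.989. Hist1h4i, an H4 gene, held 3, 4, 13 and 24 reads in MEL cells against 3 in the input, so that preparation B was the higher one. In ES-EP it held 1, 2, 4 and 10 reads against 0 and 1. Hist1h2ae, an H2A gene, held 3, 6, 7 and 5 reads in MEL cells with 0 in the input. The ChIP was 2.36 times an input set to the 3 reads that a count of 0 allows, which leaves out the counting error of the ChIP reads. Hist1h3d, an H3 gene, held 4, 12, 2 and 3 reads in ES-EP with 0 and 2 in the inputs. When reads were limited to exact matches at unique positions, the binomial calls were Hist1h3e, Hist1h1e and Hist1h4i in MEL cells and Hist1h3e alone in ES-EP, of 54 members tested, where 11.3% (MEL) and 12% (ES-EP) of all windows were called. Without the libraries MEL B2 and ES-EP A2 they were Hist1h3e and Hist1h2ae in MEL cells and Hist1h3e and Hist1h4i in ES-EP, of 56 members tested. The calls of Hist1h1e in both cell types, of Hist1h4i in MEL cells and of Hist1h3d were lost there, while the share of all windows called also fell, to 7.16% (MEL) and 7.77% (ES-EP).

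Hist1h3h, an H3 gene, had most of its reads in few libraries. It held 31 reads in MEL B2 and 23 in ES-EP A2, 7 in MEL A2, and at most 3 in each of the other 8 libraries. The first 27 bases of 23 of the 31 reads, 21 of the 23 and 4 of the 7 matched the genome exactly at 1 place only, and that place was not Hist1h3h. All 48 such reads matched another H3 gene: Hist1h3f, Hist1h3e, Hist1h3g, Hist1h3i or Hist2h3b. At the position listed in the file each of them has at least 1 mismatch. Of the 41 MEL and 28 ES-EP ChIP reads listed at Hist1h3h, 8 and 5 were exact matches at unique positions. The binomial call of Hist1h3h was not made with those reads alone, nor without the libraries MEL B2 and ES-EP A2.

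The same was seen at other members. Over all member windows, 141 reads matched exactly only at 1 other place, 130 of them within 1 kb of the start of another histone cluster gene and 126 at one of the same histone type, while 4 in the MEL input matched another position at the gene where they are listed. The 141 reads were 75 in MEL B2, 52 in ES-EP A2, 10 in MEL A2, 4 in the MEL input and 0 in the other 7 libraries. MEL A2, MEL B2 and ES-EP A2 are the 3 libraries whose files carry a match code (U0, U1 or U2) on 100% of the lines, and no other file carries one. Such reads made up 17.2% of the reads in member windows in MEL B2, 12.7% in ES-EP A2 and 4.85% in MEL A2. Hist1h4j, an H4 gene with 17 reads in MEL B2 and 13 in ES-EP A2, had 17 of them in all libraries together. Hist1h2al, the H2A gene away from the main cluster, also had 17, of which most matched Hist2h2ab. A further 9.24 to 36.9% of the reads in member windows of each library matched no place exactly.

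**Figure D3:**
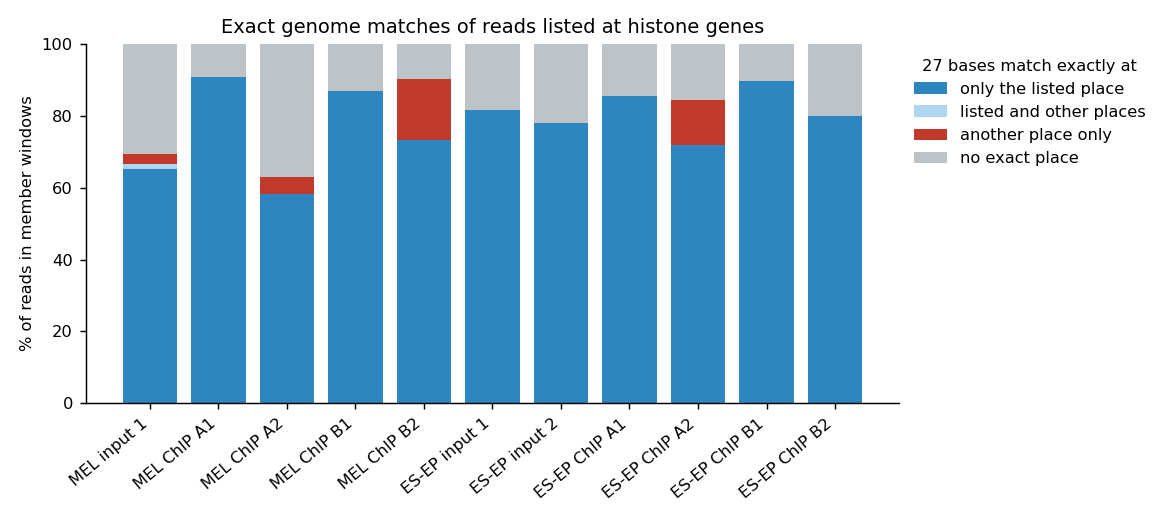
Share of the reads listed in member windows, by library, whose first 27 bases match the genome exactly at the listed place alone, there and elsewhere, at another place only, or nowhere. The class of another place only holds reads of MEL B2 (17.2%), ES-EP A2 (12.7%), MEL A2 (4.85%) and the MEL input (2.67%) and of no other library. Those of the MEL input have 28 bases and match at the gene where they are listed, so they can differ in the last base alone.

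Duplicated genes set the second limit. Of the 70 windows 16 have at least 80% unique positions, against 18996 of the 22300 protein-coding genes outside the list. At 10 members under 20% of the positions are unique, and at 4 of them none is. The windows of the H2A genes Hist1h2ao and Hist1h2ap are identical over their 500 bp, as are those of the H2B genes Hist1h2bq and Hist1h2br, which face them. The H4 genes Hist1h4m and Hist1h4n (99.8% identical) and the H2A genes Hist2h2aa1 and Hist2h2aa2 (99.8%) are near copies when their windows are aligned at the TSS without gaps. The H3 genes Hist2h3c1 and Hist2h3c2 have 10.8% and 5.4% unique positions, and copies with shifted starts are not found by this alignment. The 100 bases before the TSS of Hist1h2ao and Hist1h2ap are shown because no read of this length can tell them apart, with no letters marked.
Hist1h2ao, chr13:21902136-21902235, plus strand: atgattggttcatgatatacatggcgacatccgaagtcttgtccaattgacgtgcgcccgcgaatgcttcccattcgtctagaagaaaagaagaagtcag
Hist1h2ap, chr13:21925445-21925544, minus strand: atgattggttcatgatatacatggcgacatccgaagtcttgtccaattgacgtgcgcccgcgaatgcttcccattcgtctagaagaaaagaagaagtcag

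These members held between 0 and 23 reads over all 11 libraries, and 3 of them passed the filter of 10 reads. Hist1h2ap and Hist1h2br had 0 reads in all 11 libraries, Hist1h2bq had 1 and Hist1h2ao had 2, each in MEL A2 or ES-EP A2. Hist1h4m had 6 ChIP reads, all in the libraries MEL A2, MEL B2 and ES-EP A2, and 5 of them matched another member exactly. Hist1h4n had 2 reads in MEL B1 and 2 in ES-EP B2. The H3 genes Hist2h3c1 and Hist2h3c2 had 10 and 4 reads over all libraries, and Hist2h2aa1 and Hist2h2aa2 had 14 and 23. Of the reads of Hist2h2aa2, 12 were MEL ChIP reads and the MEL input had 0. Where no position is unique, PU.1 could not be measured, which does not show that it was absent.

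Of the windows with at least 80% unique positions, the highest of each type in the mean of the 4 preparations were Hist1h1c (H1), Hist3h2a (H2A), Hist2h2bb (H2B), Hist1h3f (H3, the only such H3 gene) and Hist2h4 (H4), and the lowest were Hist1h1t (H1), Hist1h2aa (H2A), Hist1h2ba (H2B) and Hist4h4 (H4). Only 2 H2A and 2 H4 genes have such windows, so highest and lowest name both of them and do not rank the type. Hist1h1c, a linker histone gene, held 8 and 23 reads in MEL A and B against 2 in the input, and 22 and 14 in ES-EP against 16, so that the ratio was 5.23 in MEL cells and 1.26 in ES-EP (exact binomial adjusted p = 0.0628 and 0.878). Hist1h3f held 3, 1, 2 and 2 reads in the 4 preparations. The reads listed at Hist1h3h that matched Hist1h3f did so within 1 kb of its annotated TSS, and they are not counted in its window. Hist1h1t, Hist1h2aa and Hist1h2ba are the testis genes of the clusters, which encode variants known from male germ cells. Over both ChIP preparations Hist1h1t held 2 MEL and 1 ES-EP reads, Hist1h2aa held 6 and 3, and Hist1h2ba held 2 and 0. Their inputs held 1 or 2 reads in MEL cells and 0 to 5 in ES-EP, so no enrichment was detectable at this depth.

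The members with the highest input CPM were Hist2h2bb, Hist2h2ab and Hist1h1b (a linker histone gene) in MEL cells, with 2.80, 2.57 and 1.87. In ES-EP they were Hist4h4, Hist1h1c and Hist1h4h (an H4 gene), with 3.07, 2.14 and 1.87, and Hist2h2ab was level with the last of them. Of these 6 members Hist1h1c in MEL cells was the only case in which the summed ChIP exceeded 4 times the input. Hist1h1b had 3 and 11 reads in MEL cells against 8 in the input. Hist1h4h had 11 and 4 in ES-EP against 14.

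Comparing the cell types, limma called 0 of 59 members in MEL over ES-EP ChIP, where 0.0376% of all windows were called, with 1 member and 1120 of all 21252 windows at an unadjusted p under 0.05. That member, Hist1h4j, had a fitted log2 fold change of 1.97 (SE 0.77, limma adjusted p = 0.762), which rests on ES-EP B with 0 reads: the MEL preparations held 4 and 18 reads and ES-EP A held 15. The log2 ratio of its depth-scaled reads was 0.63, and 10 of its 17 reads in MEL B2 matched only another H4 gene. The difference of ChIP over input between the cell types called 0 members and 0% of all windows, with 0 members and 439 of all 21252 windows at an unadjusted p under 0.05. The median log2 fold change of MEL over ES-EP was 0.22 for members and -0.29 for all windows. The members' median turned negative without ES-EP B (-0.42, all windows -0.53) and without MEL B (-0.18, all windows -0.69). It was also negative with the log2 input ratio of the 1 Mb around each gene subtracted (-0.23, all windows -0.41). In these 3 settings it stayed above that of all windows. By a 5-fold rule on depth-scaled ChIP reads, which has no test, 56 of the 59 members were within 5-fold. Hist1h2bn was higher in MEL cells (3 and 6 reads against 1 and 0), and Hist1h2bh (0 and 1 against 6 and 4) and Hist1h3a (1 and 0 against 8 and 1) were higher in ES-EP. These 3 make 5.08% of the members, where 4.12% of all windows passed, and each rests on at most 11 ChIP reads.

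At the Hist2 genes the ChIP values of all members tested leaned toward MEL cells, and the MEL input was also higher there. Of the 10 members 9 were tested, and 9 had a log2 fold change of MEL over ES-EP ChIP above 0 (median 0.94, range 0.04 to 1.28). In the 1 Mb around them the MEL input was 2.69 times the ES-EP input, against 1.30 times over chromosome 3 and 1.04 times around the Hist1 genes of the main cluster. In the windows of the 10 Hist2 members themselves, with 43 (MEL) and 55 (ES-EP) input reads, the depth-scaled ratio was 1.37. In the windows of the 56 Hist1 members that ratio was 0.779, and in those of protein-coding genes outside the list 0.411. With the log2 of the 1 Mb input ratio subtracted, 0 of 9 were above 0 and the median was -0.49. This subtraction takes off more than the input ratio of the windows themselves would. Hist2h2ab (H2A) held 26 and 41 reads in MEL A and B against 11 in the input, and 18 and 12 in ES-EP against 14, and its log2 fold change between the cell types was 1.20 (SE 0.75, limma adjusted p = 0.834). Hist2h4 (H4) held 16 and 31 reads against 5 in MEL cells and 17 and 11 against 8 in ES-EP. Hist2h2ac (H2A) and Hist2h2be (H2B) share a promoter. In MEL cells Hist2h2ac held 9 and 23 reads against 3 in the input, and Hist2h2be 5 and 8 against 4. In ES-EP Hist2h2ac held 7 and 13 against 11, and Hist2h2be 2 and 3 against 4. Hist2h2bb (H2B) held 9 and 12 reads against 12 in the MEL input, and Hist2h3b (H3) 6 and 14 against 7. In ES-EP, Hist2h2bb held 7 and 3 against 5, and Hist2h3b 9 and 10 against 4. The MEL ChIP preparations of the cluster were 1.36 and 2.09 times the input and those of ES-EP 1.49 and 1.13 times. Over the 46 Hist1 members tested the median of MEL over ES-EP was -0.01, with 23 of 46 above 0.

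Hist4h4, an H4 gene, held 12 and 26 reads in MEL A and B against 4 in the input, which is 2.25 and 3.98 times the input. In ES-EP it held 7 and 15 reads against 23, which is 0.363 and 0.688 times. The depth-scaled MEL input of Hist4h4 was 0.304 times that of ES-EP. Over the protein-coding genes outside the list the mean input ratio was 0.411. The difference of these enrichments was 2.41 on the log2 scale (SE 1.26), with a limma adjusted p = 0.995. Its MEL over ES-EP ChIP was 0.83 (SE 0.71, limma adjusted p = 0.834). In the Hist3 cluster, Hist3h2a (H2A) held 1 and 11 reads in MEL cells against 0 in the input, and 5 and 3 in ES-EP against 8. Hist3h2bb-ps, whose window overlaps it, held 0 and 4 against 1 and 5 and 3 against 5. Hist3h2ba (H2B) held 4 and 3 against 1 in MEL cells and 1 and 2 against 0 in ES-EP.

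Around the TSS the mean of the 67 protein-coding members rose above the flanks in all ChIP preparations, and less so in the inputs. In the 100 bp after the TSS the members had 2.20 and 3.80 reads per gene and 10000000 reads in the MEL preparations, A first, and 3.35 and 2.04 in those of ES-EP. The inputs had 1.43 (MEL) and 1.57 (ES-EP) there. Other protein-coding genes had 2.68, 4.74, 7.20 and 3.94, with inputs of 1.30 and 3.28. The members' means include Hist1h3e and rest on 41 to 178 reads in that step.

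**Figure D4:**
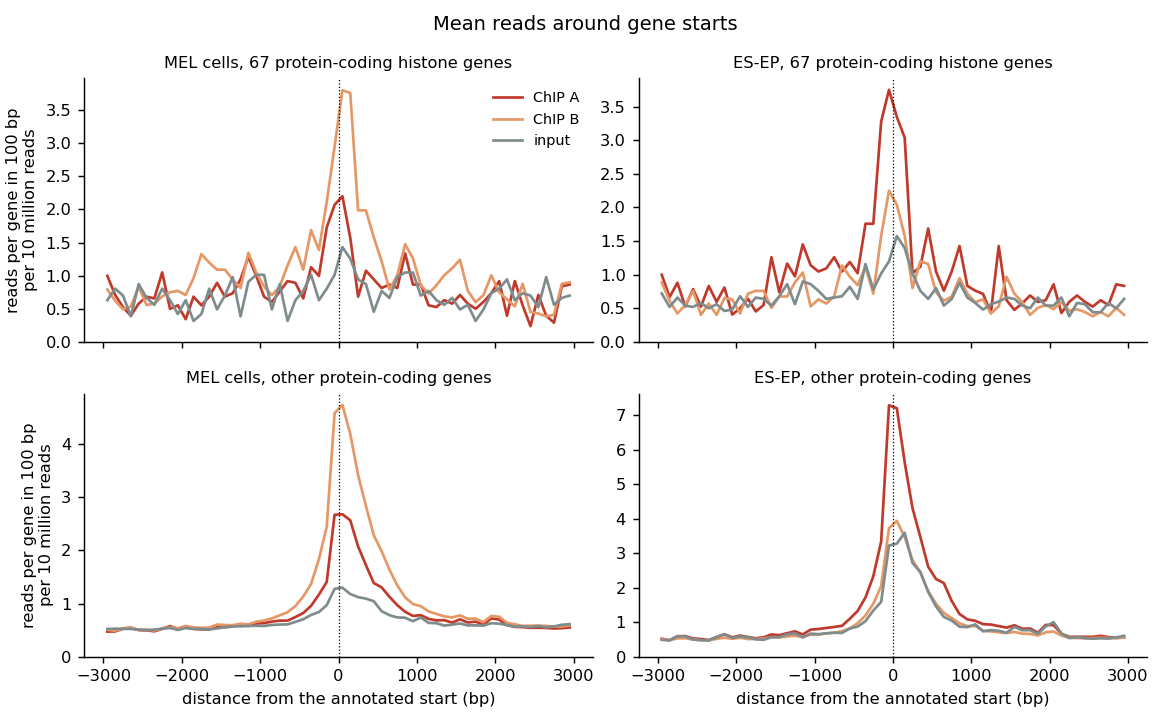
Mean reads per gene in steps of 100 bp, per 10000000 reads of the sample, against the distance from the TSS for 67 protein-coding histone genes (top) and 22300 other protein-coding genes (bottom), in MEL cells (left) and ES-EP (right). ChIP lines of the members rise at the TSS, and the axes of the panels differ.

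Accumulations of PU.1 reads also lay between the histone genes. Across the clusters, with 2 kb at each end and without Hist1h2al, 9 separate windows of 200 bp held at least 60 ChIP reads. In 4 of them the ChIP was at least 5 times the depth-scaled input in both cell types, with an input under 3 reads set to 3. The first was the Hist1h3e promoter, with 343 ChIP reads and 1 input read in each cell type. The other 3 lay over 1 kb from any histone gene. The window with 47 and 57 reads in the MEL preparations and 99 and 47 in those of ES-EP, A first, and 0 in both inputs, lies 3514 bp after the TSS of Slc17a4, a gene of a phosphate transporter family, and 22663 bp from the TSS of Hist1h2ba. The window with 22, 44, 99 and 52 reads against 1 (MEL) and 0 (ES-EP) lies at -11736 bp from the TSS of Btn2a2, which encodes a butyrophilin, and at -30457 bp from that of Hist1h4h (minus is upstream). The window with 33, 60, 52 and 32 reads against 0 and 9 lies 3599 bp after the TSS of Prss16, a serine protease gene of the thymus, and 29500 bp from that of Hist1h2ah. These windows were found with the same ChIP reads, so their levels are a description. Their middle 100 bases on the plus strand are shown, as those of the sites with the most reads away from histone genes, with GGAA or TTCC in capitals. Each 200 bp window held GAGGAA, a longer form of the core, on 1 strand or the other (near Slc17a4 outside the bases shown), and the Hist1h3e window did not.
near Slc17a4, chr13:24003312-24003411: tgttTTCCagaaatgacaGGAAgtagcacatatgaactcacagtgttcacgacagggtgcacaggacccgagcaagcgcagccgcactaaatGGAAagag
near Btn2a2, chr13:23592412-23592511: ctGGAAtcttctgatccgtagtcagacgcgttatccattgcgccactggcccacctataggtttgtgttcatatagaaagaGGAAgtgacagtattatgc
near Prss16, chr13:22097962-22098061: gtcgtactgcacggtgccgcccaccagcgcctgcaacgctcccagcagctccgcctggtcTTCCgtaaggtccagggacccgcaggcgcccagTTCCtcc

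**Figure D5:**
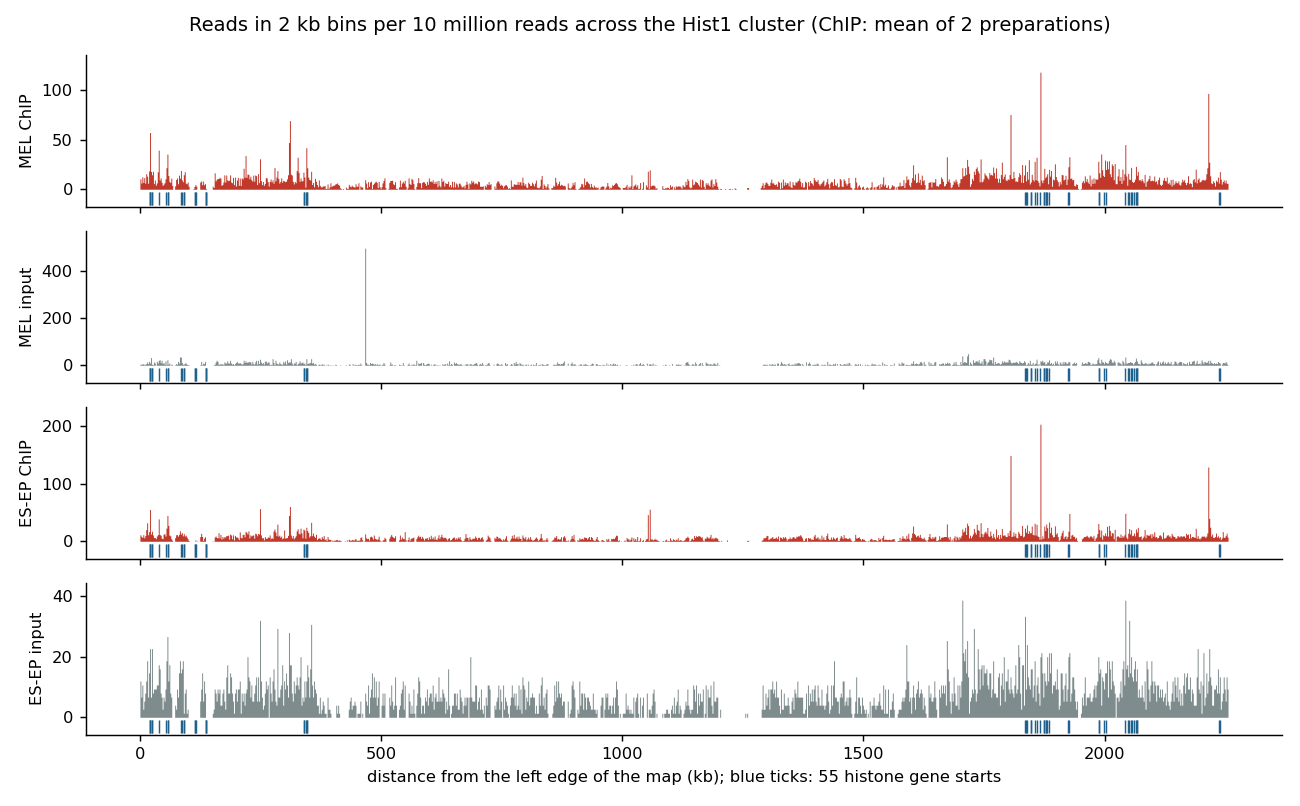
Reads in 2 kb bins per 10000000 reads across the Hist1 cluster against the distance from the left edge of the map, as the mean of 2 ChIP preparations and as input in MEL cells and ES-EP, with blue ticks at 55 histone gene starts. The tallest ChIP bins are those of Hist1h3e and of 2 sites between histone genes. The scales differ, and a single pile of reads fills the panel of the MEL input.

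In the promoters of the members (250 bases before to 50 after the TSS), words known from histone genes were counted beside those that hold the PU.1 core. CCAAT on either strand was in 59 of 70 members (84.3%) and in 37.8% of 22295 other protein-coding promoters, and TATAAA was in 38 (54.3%) against 13.3%. ATTTGCAT, the octamer bound by Oct1, was in 16 members, 9 of them H2B genes, against 1.66%. TTTCCCGC, the word bound by E2F, was in 3 members (4.29%) against 1.32%, and TTTGGCGC, another E2F word, was in 0 against 0.682%. GGAA was in 66 members (94.3%) and in 95.8% of the others. GAGGAA, which contains GGAA, was in 10 members (14.3%) against 28.1%, and GAGGAAGT was in 0 of 70 against 3.13%. The 10 members with GAGGAA had median CPM of 1.40 and 1.93 in the MEL preparations and 1.99 and 0.986 in those of ES-EP, A first. The 60 without it had 0.527, 0.572, 0.636 and 0.352. The input medians were also higher with the word, 0.467 against 0.234 in MEL cells and 0.668 against 0.467 in ES-EP.

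Histone genes outside the clusters and the genes that serve the clusters were listed for comparison. Of 14 replacement and other histone genes 12 were tested, and 0 were called by limma in either cell type against input, where 0.329% (MEL) and 0.551% (ES-EP) of all windows were called. Of 25 genes for histone mRNA processing and histone gene control, 24 of them in the annotation, 23 were tested, and 2 were called in each cell type, the same 2 genes. Eri1, the exonuclease that trims and degrades histone mRNA, held 73 and 179 reads in the MEL preparations and 477 and 195 in those of ES-EP, against 2 and 16 in the inputs. Its log2 fold changes were 4.95 in MEL cells (SE 1.12, limma adjusted p = 0.0095) and 4.38 in ES-EP (SE 1.00, limma adjusted p = 0.00493). E2f4, a repressor of the E2F family, held 55, 142, 388 and 177 reads against 4 and 20, with log2 fold changes of 3.73 (SE 0.96, limma adjusted p = 0.0405) and 3.85 (SE 1.01, limma adjusted p = 0.0298). Of 17 histone chaperone genes all were tested and 0 were called in either cell type. By the exact binomial test 9 genes of the second list and 6 of the third were higher in ChIP in each cell type, and 3 (MEL) and 1 (ES-EP) of the first, where 12% (MEL) and 10.7% (ES-EP) of all windows and 14.6% and 12.8% of protein-coding windows were called.

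As a check of the immunoprecipitation, the window of 500 bp with the most ChIP reads between 10 and 18 kb before Sfpi1 was taken, and it lay 11.85 kb before the TSS. It held 89, 321, 384 and 297 reads in the 4 preparations, which is 9.55 to 28.1 times the input, a level set in part by the choice of the highest window. The TSS of Sfpi1 held 8, 8, 4 and 2 reads. The ChIP preparations and inputs had between 4278560 and 7488885 reads on placed nuclear chromosomes, and a window with 0 reads allows up to 3 reads.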

How the data were processed

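PU.1 ChIP-Seq and input DNA of MEL cells and ES-EP were analysed from 11 files, each a list of aligned reads. The authors sequenced on an Illumina GAII, aligned to mm9 with ELAND (version not given in the sources used here) and state unique alignments with up to 2 mismatches. The deposited files hold read positions and sequences and, in 3 libraries, a match code. In 8 libraries 0.014 to 0.0991% of the reads had over 2 mismatches with NCBIM37 and were kept. Library letters were taken as the independent chromatin preparations of the study's methods, and their 2 libraries were summed (n = 2 per cell type). The labels do not state this, and the deposited files letter those of ES-EP C and D. Nothing says that they came from separate cultures, so p-values measure the spread between these preparations.

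Starts were read as counted from 1. 5′ ends were moved by 70 bp (MEL) or 65 bp (ES-EP) to the fragment centre and counted in 500 bp around the 5′ end of each gene of GENCODE on NCBIM37. Depth was the number of reads on placed nuclear chromosomes. Windows with at least 10 reads over all libraries were fitted with limma 3.58.1 (voom, two-sided moderated test, R 4.3.3), with Benjamini-Hochberg adjustment over all windows. The step was first run on simulated counts with a fixed spread, in which MEL over ES-EP ChIP was changed in well covered windows. That run does not cover ChIP over an unreplicated input, nor changes in windows with few reads. Exact binomial tests used summed reads. Unique positions are those whose 27-mer occurs once in the genome. Alternatives were other windows, filters, scalings, tests and libraries left out.

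The letters of the cell types do not pair the preparations (deviations of both A preparations correlate at r = -0.189 over 21252 windows). The members and lists were chosen with earlier results of these data known. Named were members past the threshold, per type the highest and lowest with at least 80% unique positions, the members of Hist2, Hist3 and Hist4, those under 20% unique, 3 testis genes, and the 3 with the most input in each cell type.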

Additional observations from a re-analysis of the deposited data

Results flagged for a closer look

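Among 13 named members with at least 20 reads, 3 had ChIP above input in both preparations of MEL cells and below it in both of ES-EP. The ES-EP input was the higher one at gene starts more widely. Over 22300 protein-coding genes outside the list the mean input CPM was 0.575 in MEL cells and 1.40 in ES-EP (medians 0.467 and 0.534). The share of the inputs in these opposite directions was not tested. Hist4h4 had a CPM of 2.11 and 3.72 in the MEL preparations against 0.935 in the input, and 1.11 and 2.11 in ES-EP against 3.07, and the difference of log2 enrichments was 2.406 (limma adjusted p = 0.995). Hist3h2a had 0.176 and 1.57 against 0 in MEL cells and 0.796 and 0.423 against 1.07 in ES-EP, with a fitted difference of 3.347, which depends on the prior count since the MEL input is at 0 (limma adjusted p = 0.995). Hist1h4h, at 0.702 and 1.29 against 0.701 in MEL cells and 1.75 and 0.564 against 1.87 in ES-EP, had a difference of 1.2 (limma adjusted p = 0.995).

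Over 32 groups of 4 libraries, 1 had a library far from the others, where chance gives about 1 in 20. The summed Hist3 CPM in ES-EP were 2.98 in A1, against 1.02, 0.887 and 1.24 in A2, B1 and B2, and the gap was 0.831 of the range. It rests on at most 7 reads in A1, since a pair of the Hist3 windows overlap and reads in the overlap count for both.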

How the results depend on the processing

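The number of members called in MEL ChIP over input was 0 in the first place. It was 1 (Hist1h3e) with a 1000 bp window (112 of 30132 windows called) and with 1 read per position and strand (94 of 20811). Without the libraries MEL B2 and ES-EP A2 it was also 1 (Hist1h3e), with 239 of 18110 windows called. It was 4 with a filter of 1 read (949 of 35088 windows called), 3 with each library as a sample (516 of 21252) and 5 by the exact binomial test (2550 of 21252), against 70 windows in the first place. The number in ES-EP, 1 in the first place, was 0 with a 200 bp window (124 of 12605 windows called) and with log2(CPM + 0.5) without weights (5 of 21252), against 117 windows in the first place. By the exact binomial test it was 4 (2266 of 21252). Leaving out a preparation or an ES-EP input leaves 1 ChIP sample or 1 input library in a group, and the calls of these settings are not counted in this section. Between the cell types 2 members (Hist1h4i and Hist2h2ab, both higher in MEL cells) were called with median-ratio scaling, with 210 of 21252 windows. By the binomial test the members called in MEL cells, 5 in the first place, were 2 of 36 with a 200 bp window (9.64% of all windows), 3 of 54 with exact matches at unique positions (11.3%) and 2 of 56 without MEL B2 and ES-EP A2 (7.16%). In ES-EP, 4 in the first place, they were 1 of 54 with exact matches (12%) and 2 of 56 without those libraries (7.77%).

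The members' median log2 of ChIP over input in MEL cells was 0.62 in the first place (all windows 0.65). It was 1.10 with 200 bp (all windows 1.00), 0.84 with 1000 bp (0.39), 0.93 with at least 20 reads (1.04) and -0.27 with median-ratio scaling (-0.19). Without weights it was 0.38 (0.49), with each library as a sample 0.75 (0.68), with merged windows 0.81 (0.65) and with exact matches 0.92 (0.81). In ES-EP, 0.30 in the first place, it was 0.75 with 200 bp (all windows 0.44), 0.79 with at least 20 reads (0.44), -0.10 with median-ratio scaling (-0.17), 0.15 without MEL B2 and ES-EP A2 (0.28), and 0.0017 with exact matches (0.42). Leaving out a preparation or input gave 0.52 (without MEL B) to 0.88 (without MEL A) in MEL cells and 0.078 (without ES-EP A) to 0.70 (without ES-EP B) in ES-EP. For MEL over ES-EP it gave -0.42 (without ES-EP B, all windows -0.53) to 0.58 (without MEL A, all windows 0.055). The last median, 0.22 in the first place (all windows -0.29), was -0.23 with the log2 input ratio of 1 Mb subtracted (all windows -0.41).

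When preparation letters entered as a replicate block, the count for MEL over ES-EP stayed at 0 and the members' median was 0.12. With crossed letters as a block 1 member (Hist1h3e, lower in MEL cells) was called, with 996 of 21252 windows. The exact-match setting, the settings without the 2 libraries and the crossed block were chosen after seeing the data. The causes of these changes were not tested. With few reads per member and 1 input library in MEL cells, changes of a few fold at a single histone gene were mostly not detectable.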
